A study of Mus musculus with 37 samples.

Results

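The cytosolic ribosome proteins were followed through 58 gene IDs, 30 for the small subunit and 28 for the large subunit, among the 60708 rows of a count table. The IDs were a list of small-subunit and large-subunit ribosomal protein genes, matched to the table by the part of the ID before the dot. No measured value decided which IDs entered the list, but it was chosen with earlier results of these data known. All 58 were present. A mean of at least 10 counts per library was reached by 45 of them, 24 small and 21 large, and the same 45 passed the filter on low counts that left 5193 IDs for testing.

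The cytosolic ribosome is built from a small subunit, which decodes mRNA, and a large subunit, which joins amino acids into a chain. Each subunit is an assembly of ribosomal RNA and many ribosomal proteins that are needed in near-equal amounts. Their mRNAs are among the most abundant of most cells, and many of them share a pyrimidine tract at the 5′ end through which their translation is tuned to growth signals. In lymphocytes, leaving rest for growth is known to raise ribosome production.

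Splenocytes of wild-type FVB mice were cultured for 48 h with RAW264.7, a macrophage-like line of mouse origin, or with medium taken from that line, and Brefeldin A, which blocks protein secretion, was added before collection. The RAW264.7 cells had been kept for 72 h at 21% oxygen (normoxia) or 1% oxygen (hypoxia), with SPP1 (osteopontin, a secreted integrin and CD44 ligand) at 1 µg/mL or without it. Splenocytes thus met RAW264.7 medium, RAW264.7 cells, or RAW264.7 cells after a wash, and the names medium, cells and washed stand for these modes. Naive splenocytes were also sequenced, and the labels say no more about them. Each of the 12 combinations of mode, oxygen and SPP1 had 3 libraries, apart from medium with normoxia and no SPP1, which had replicates 2 and 3, and there were 2 naive libraries, which made 37 libraries in 13 groups. The comparison of cells with medium asks what contact with RAW264.7 cells does beyond their medium. That of washed with medium sets contact with washed RAW264.7 cells against the medium. The SPP1 and oxygen arms ask whether the state of the RAW264.7 cells matters.

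Libraries held 631574 to 1337314 counts, with a median of 1063211, and the shallowest was naive replicate 2. The alignment of these mouse reads was to a human genome, so a count is a mouse read that matched a human gene closely enough, and a mouse ribosomal protein read could also fall on a human pseudogene or paralog outside the list. The level of an ID against another ID therefore carries the match between the species as well as the transcript, and values are compared below for 1 ID at a time or for sums over the same IDs. The table does not pair IDs with gene names and the gene table at hand holds mouse genes, so members are given by ID and subunit, the subunit being taken from the order of the list. The marker genes planned for checking the splenocyte label could not be looked up for the same reason. RAW264.7 cells that were collected with the splenocytes would add their own RNA in the cells and washed modes, and the 2 sources cannot be told apart here. In bulk RNA, a change in the number of cells of a type and a change in RNA per cell cannot be told apart either.

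The ribosomal protein IDs took a larger part of the counts after contact with RAW264.7 cells than after their medium. In the 11 medium libraries the 58 IDs together held from 6.59% to 9.94% of the counts, with a median of 7.48%. In the 12 cells libraries they held from 10.1% to 12.6%, with a median of 11.7%, and in the 12 washed libraries from 8.58% to 14.2%, with a median of 11.7%. Every cells library lay above every medium library, although the gap between the lowest cells library and the highest medium library was small. Medium had a mean share of 7.69% ± 0.859 (SD, n = 11). The cells mean was 11.6% ± 0.740 (SD, n = 12) and the washed mean 11.4% ± 1.56 (SD, n = 12), so that the cells mean was 1.51 times and the washed mean 1.49 times the medium mean. The naive libraries held 8.69% and 6.29%, a range that spans most of the medium libraries. The difference of the mode means is larger than the spread within each mode. The sum over the IDs was not tested, since the IDs were chosen with earlier results of these data known. The 95% Wilson intervals of the single shares were at most 0.144 percentage points wide, and they cover counting error only.

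**Figure D1:**
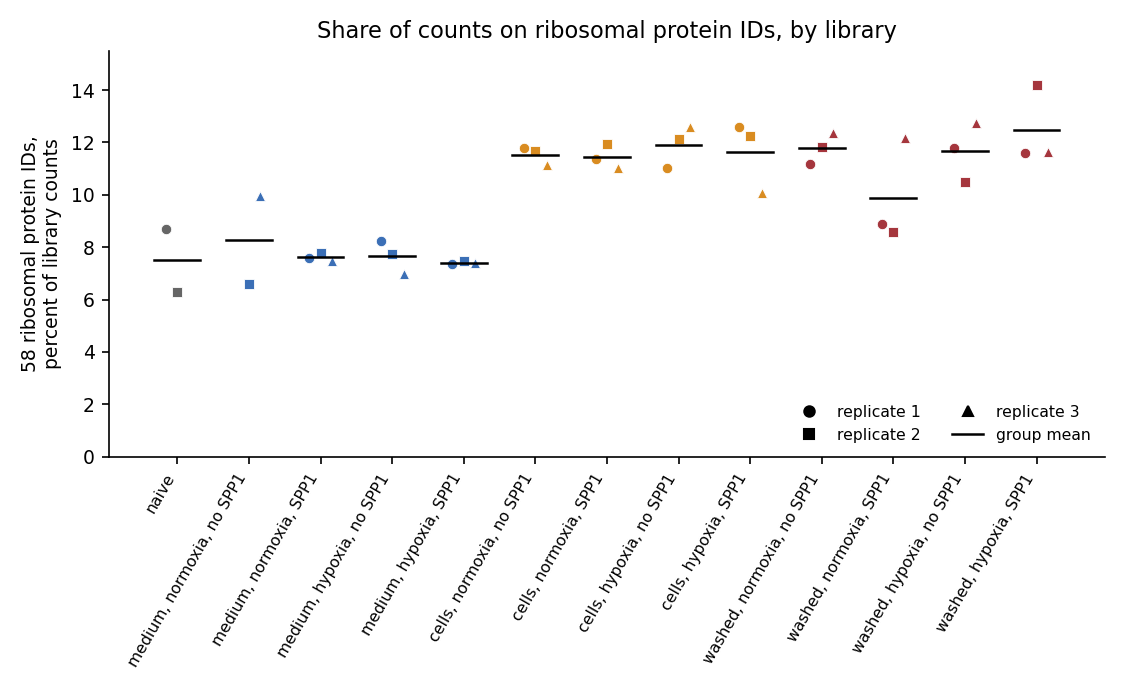
The vertical axis gives the percent of a library's counts on the 58 ribosomal protein IDs, from 0, and each point is 1 of 37 libraries, in 13 groups, with the replicate number as the symbol and the group mean as a bar. The medium and naive libraries lie between 6.29% and 9.94%, the cells libraries between 10.1% and 12.6%, and 2 of the 3 washed libraries of normoxia with SPP1 lie at 8.87% and 8.58%.

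Ordered by mean share, the groups of the cells and washed modes came before the medium and naive groups without exception. The highest was washed, hypoxia, SPP1 at 12.5% ± 1.49 (SD, n = 3). The next 6 groups were close together, from cells, hypoxia, no SPP1 at 11.9% ± 0.798 (SD, n = 3) down to cells, normoxia, SPP1 at 11.5% ± 0.465 (SD, n = 3), and no neighbours among these differed by more than their SDs. Washed, normoxia, SPP1 followed at 9.88% ± 2.00 (SD, n = 3), and then medium, normoxia, no SPP1 with 6.59% and 9.94% in its 2 libraries. The remaining medium groups were at 7.65% ± 0.631, 7.61% ± 0.154 and 7.41% ± 0.0565 (SD, n = 3 each), with naive between the last 2. The only overlap between a co-culture mode and medium came from single libraries. Washed, normoxia, SPP1 replicates 1 and 2 held 8.87% and 8.58%, below the 9.94% of medium, normoxia, no SPP1 replicate 3.

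A few libraries stood apart in earlier work on these data, and the shares were also taken without them. Without replicate 1 of medium, hypoxia, no SPP1 and replicate 3 of medium, normoxia, no SPP1, the 9 other medium libraries lay between 6.59% and 7.78%. Without replicates 1 and 2 of washed, normoxia, SPP1, replicate 1 of washed, hypoxia, SPP1 and replicate 2 of washed, hypoxia, no SPP1, the 8 other washed libraries lay between 11.2% and 14.2%, with a mean of 12.2% ± 0.924 (SD). Without cells, hypoxia, no SPP1 replicate 2, the 11 other cells libraries had a mean of 11.6% ± 0.760 (SD). An ID outside the list, ENSG00000080824.19, was at 53369 and 28857 CPM (counts scaled to a common library size) in washed, normoxia, SPP1 replicates 1 and 2, against a median of 7227 CPM over the washed libraries. It was also at 43476 CPM in washed, hypoxia, SPP1 replicate 1, whose ribosomal protein share was 11.6%. In cells, hypoxia, no SPP1 replicate 2, with a ribosomal protein share of 12.1%, it was at 27798 CPM. Its part in the low shares was not tested.

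Both subunits had the larger share. Of the counts in the 11 medium libraries, small-subunit IDs held 2.21% ± 0.482 (SD). They held 3.43% ± 0.468 in the 12 cells libraries and 3.37% ± 0.638 in the 12 washed libraries. Large-subunit IDs held 5.48% ± 0.451, 8.20% ± 0.519 and 8.08% ± 1.10 in the same order. Of all ribosomal protein counts, the small subunit took 28.5% ± 3.56 in medium, 29.5% ± 2.84 in cells and 29.3% ± 3.33 in washed, so the balance of the subunits in these modes differed by less than the spread between libraries. In the naive libraries it took 22.8% and 23.1%, near the lowest medium library at 23.1%.

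Most of these counts fell on few IDs. ENSG00000177600.9, a large-subunit ID with the highest mean CPM of the 45, held 32.8% of all ribosomal protein counts and had a rank of 1 to 3 among all IDs of every library. The 5 leading IDs together held from 70.4% to 76.8% of the ribosomal protein counts of a library. ENSG00000177600.9 was at 18679, 21605 and 31845 CPM in medium (lowest, median and highest), at 27722, 41195 and 43572 CPM in cells, and at 31441, 40606 and 63326 CPM in washed. The modes overlapped only through medium, normoxia, no SPP1 replicate 3, the highest of the medium libraries, with cells, hypoxia, SPP1 replicate 3 and washed, normoxia, SPP1 replicate 1 below it. The naive libraries had 29437 and 16357 CPM, on both sides of the medium median. At the other end, the large-subunit ID ENSG00000197958.13 had the lowest mean CPM of the 45. It was at 3.32, 7.76 and 13.1 CPM in medium, 8.81, 13.1 and 23.5 CPM in cells and 1.15, 18.3 and 41.1 CPM in washed, with 2.90 and 5.17 CPM in the naive libraries.

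The 13 IDs below a mean of 10 counts were 6 of the small and 7 of the large subunit. They held 0.0128% of the ribosomal protein counts, with no more than 12 counts in any library, and 4 of them had no count in any library. A count of 0 allows up to 3 counts, so nothing can be said at this depth about these transcripts, and in a cross-species alignment a mouse transcript may give no count at all on its human ID.

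Across the 13 groups, 40 of the 45 tested IDs differed in edgeR's quasi-likelihood test at an adjusted p under 0.05, including all 24 of the small subunit and 16 of the 21 of the large subunit. Over all tested IDs the same call was made for 53.6%. With scaling by library totals alone, 26 of the 45 were called, and the share over all tested IDs under that scaling is not given here. For 37 of the 45 the highest group mean was in a washed group, for 7 in a cells group and for 1 in a medium group. The lowest group mean was in the naive group for 25 and in a medium group for the other 20. Neither count was made over all tested IDs. The group means are of scaled counts, and the mean summed share of raw counts was 0.985 times as high in washed as in cells. From library to library the 45 had a median SD of 0.54 on the log2 CPM scale, with a range of 0.27 to 1.15, against a median of 0.82 over the 5193. The 2 sets were not matched for abundance, on which this SD also depends, so steadier levels of these IDs are not shown.

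In 10 of the 11 medium libraries no more than 11 of the 45 IDs lay above their own mean over all libraries on the log2 CPM scale, and in the naive libraries 2 and 3 did. Medium, normoxia, no SPP1 replicate 3 differed from the rest of its mode, with 25 of 45 above their mean. The cells libraries had 20 to 44 of 45 above, and the washed libraries 27 to 45, apart from washed, normoxia, SPP1 replicate 2 with 14. The libraries with the highest and the lowest median shift were washed, hypoxia, SPP1 replicate 2, at 0.66 above the IDs' own means, and naive replicate 2, at -1.01.

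**Figure D2:**
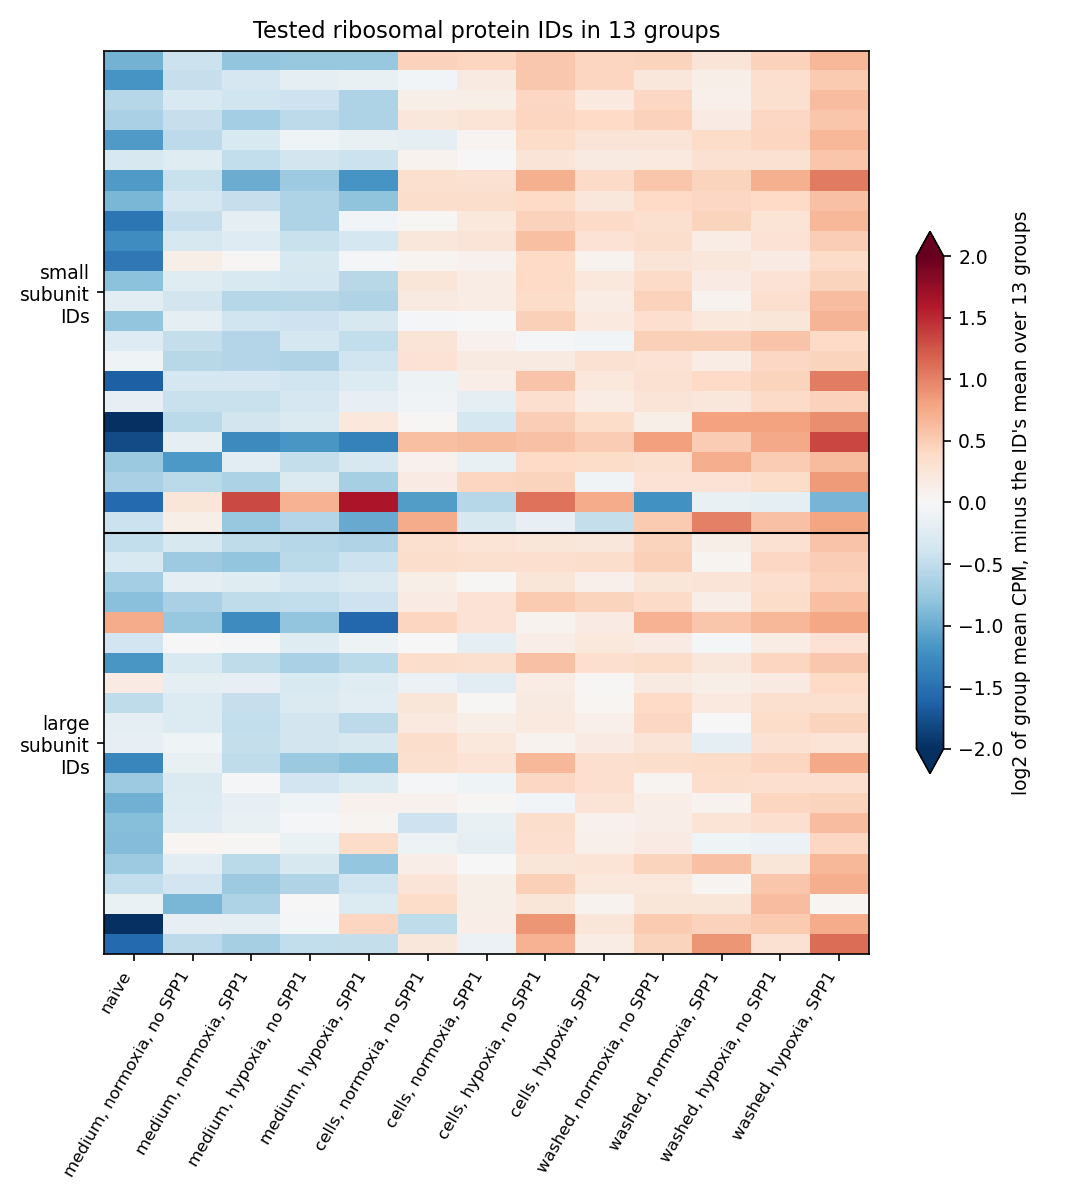
Rows are the 45 tested ribosomal protein IDs, small subunit above the line and large subunit below it, each in order of mean CPM, columns are the 13 groups, and the colour is the log2 of the group mean CPM minus the ID's mean over the groups. In 37 rows the highest value is in a washed column, and the lowest value is in the naive column for 25 rows and in a medium column for 20, while single rows depart from this, such as that of ENSG00000145425.10. The same counts were not made over all tested IDs.

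Between cells and medium, 34 of the 45 IDs were higher in cells and 1 was lower (edgeR, adjusted p under 0.05), where 23.4% of all tested IDs were called higher and 25.3% lower. The median log2 fold change was 0.60 for the ribosomal protein IDs and -0.02 over all tested IDs. By subunit, 19 of 24 small-subunit IDs and 15 of 21 large-subunit IDs were higher, and the single lower one was of the small subunit. A 2-fold change was passed by 4 of the 34, and the same count over all tested IDs is not given here. The median absolute log2 fold change was 0.61 for the ribosomal protein IDs and 0.57 over all tested IDs. For 7 of the 45 every cells library lay above every medium library, a pattern found for 1.75% of all tested IDs.

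Between washed and medium, 41 of the 45 were higher in washed and 1 was lower, where the calls over all tested IDs were 28.6% higher and 30.2% lower. The median log2 fold change was 0.80 for the ribosomal protein IDs and -0.03 over all tested IDs. All 24 small-subunit IDs were called, 23 higher and 1 lower, and 18 of 21 large-subunit IDs were higher. A 2-fold change was passed by 9 of the 41. The median absolute log2 fold change was 0.86 for the ribosomal protein IDs and 0.72 over all tested IDs. For 7 of the 45 every washed library lay above every medium library, against 2.91% of all tested IDs. Without the 5 co-culture libraries that stood apart, 34 of 46 tested IDs were higher in cells and 41 in washed, and without the 2 such medium libraries 35 and 43 of 47, with 1 lower each time. The share of all tested IDs called in those refits is not given here, so these counts describe the members only. The cells and the washed comparison share the medium libraries, so their counts are not independent of each other.

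**Figure D3:**
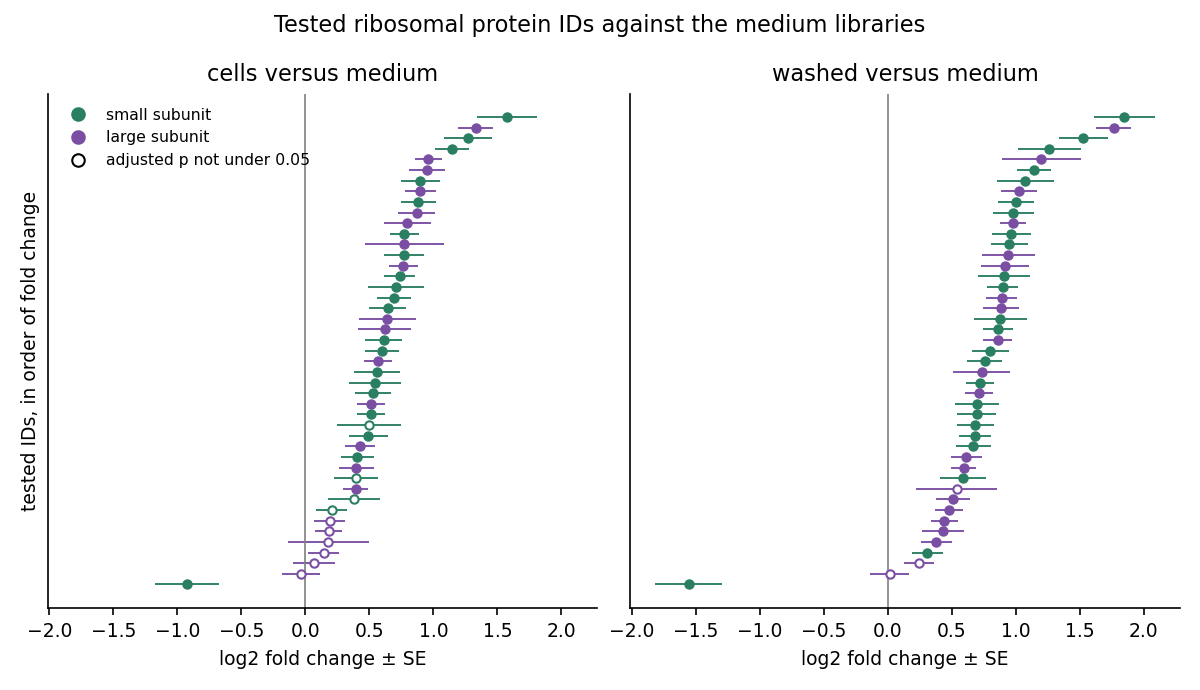
Each point is 1 of the 45 tested ribosomal protein IDs, with its log2 fold change and SE from the edgeR fit on the horizontal axis and its order on the vertical axis, coloured by subunit and open where the adjusted p was not under 0.05. Against medium, 34 filled points lie to the right of 0 for cells and 41 for washed, with 1 filled small-subunit point to the left in each panel.

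The largest rises against medium were those of ENSG00000177954.14 of the small subunit and ENSG00000137818.12 of the large subunit. ENSG00000177954.14 was at 9.80, 16.1 and 52.6 CPM in medium (lowest, median and highest), at 31.7, 63.0 and 97.2 CPM in cells and at 28.7, 60.2 and 129 CPM in washed. The overlap came from 1 medium library, normoxia, no SPP1 replicate 3 at 52.6 CPM, and the next medium library was at 21.4 CPM, below every cells and washed library. The log2 fold change was 1.57 (SE 0.24, edgeR adjusted p = 1.21e-06) for cells and 1.85 (SE 0.24, edgeR adjusted p = 4.13e-08) for washed.

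ENSG00000137818.12 was at 373, 518 and 1116 CPM in medium, at 984, 1510 and 1856 CPM in cells and at 1578, 1988 and 2609 CPM in washed. All washed libraries lay above all medium libraries, and 1 cells library, hypoxia, SPP1 replicate 3 at 984 CPM, fell below the highest medium library, hypoxia, no SPP1 replicate 1. The other high medium library, normoxia, no SPP1 replicate 3, was at 927 CPM, and the remaining 9 were at 618 CPM or less. The log2 fold change was 1.33 (SE 0.14, edgeR adjusted p = 8.03e-10) for cells and 1.77 (SE 0.14, edgeR adjusted p = 1.20e-12) for washed.

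The small-subunit ID ENSG00000145425.10 went the other way. It was at 9.94, 47.7 and 65.0 CPM in medium, at 7.93, 17.8 and 54.7 CPM in cells and at 1.60, 11.9 and 20.7 CPM in washed. Its lowest medium values, 9.94 and 13.1 CPM, were those of hypoxia, no SPP1 replicate 1 and normoxia, no SPP1 replicate 3, and the other 9 medium libraries, from 25.9 CPM up, lay above every washed library. The cells libraries overlapped with both modes. The log2 fold change against medium was -0.92 (SE 0.25, edgeR adjusted p = 0.00247) for cells and -1.55 (SE 0.26, edgeR adjusted p = 4.49e-06) for washed. Counts of this ID were low, with at most 73 in a library and a single count in washed, hypoxia, SPP1 replicate 1.

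**Figure D4:**
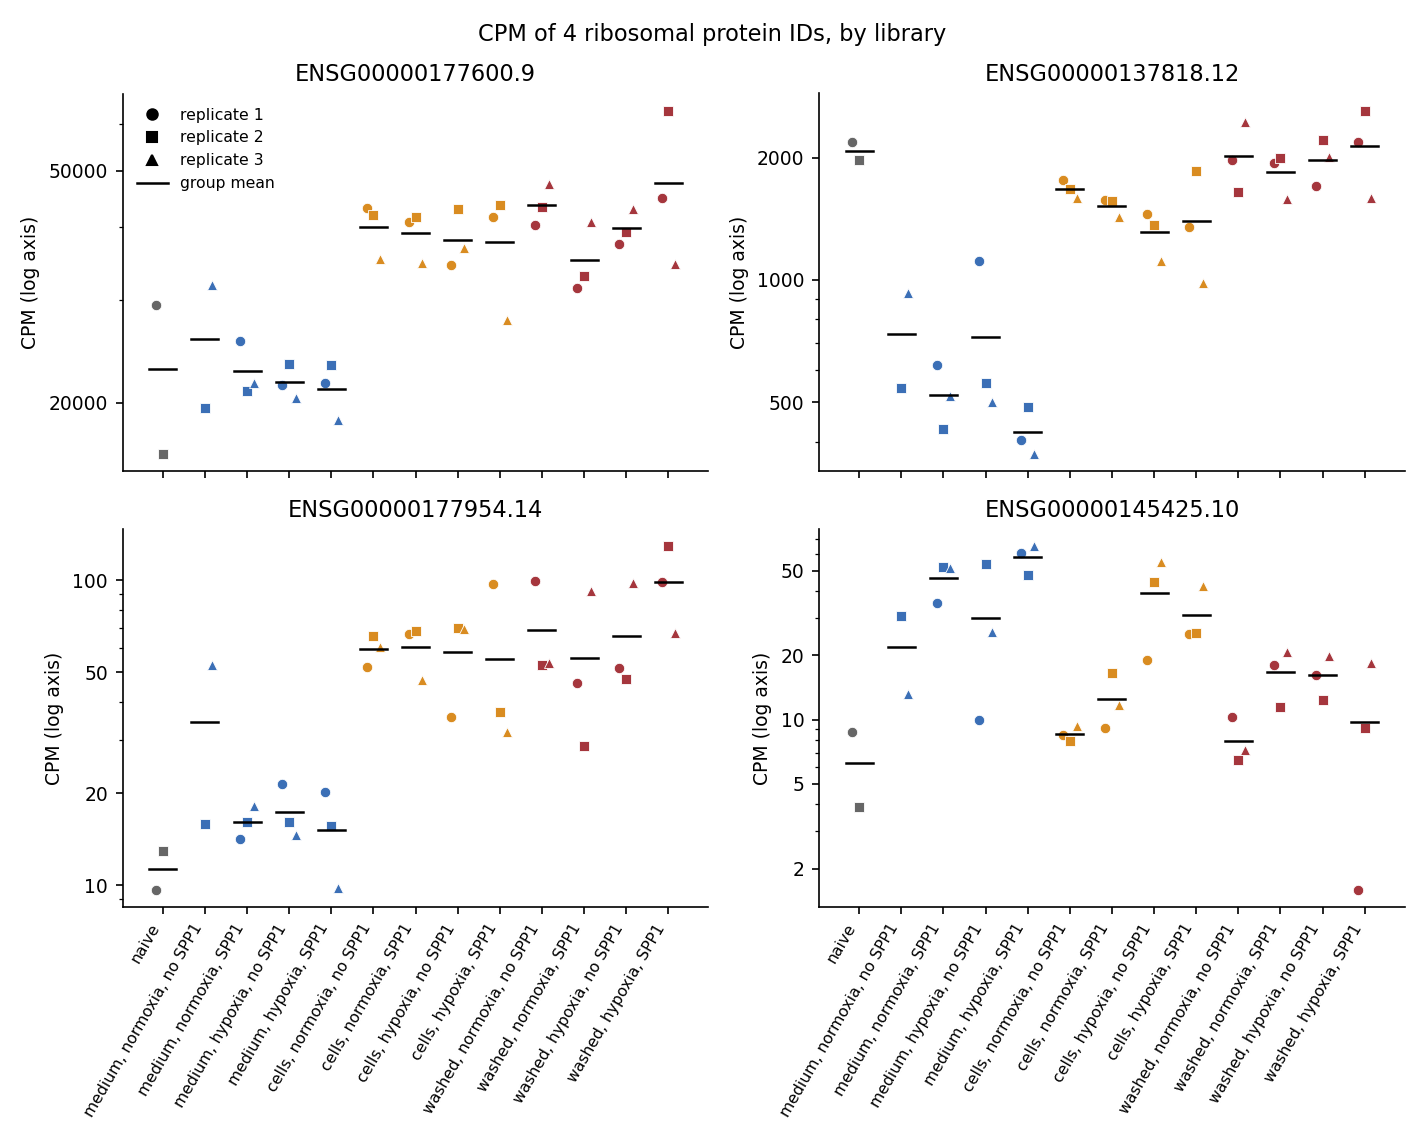
CPM on a log axis for 4 ribosomal protein IDs, with 1 point for each of the 37 libraries in 13 groups, the replicate number as the symbol and the group mean as a bar. Medium libraries are lowest or among the lowest of the cultures for the first 3 IDs, ENSG00000137818.12 is at 1977 and 2183 CPM in the naive libraries, above all medium libraries, and ENSG00000145425.10 is highest in medium libraries and in cells libraries of hypoxia.

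Between washed and cells few ribosomal protein IDs were called. The mean summed share in washed was 0.985 times that in cells, but without the libraries that stood apart the order turned, with 12.2% ± 0.924 in washed (SD, n = 8) and 11.6% ± 0.760 in cells (SD, n = 11). The log2 fold change was above 0 for 40 of the 45, and for 2539 of all 5193 tested IDs. Higher calls in washed were made for 2 of the 45 and lower calls for 0, where 4.16% of all tested IDs were called higher and 3.04% lower, so the members' share was near that of all IDs. The median log2 fold change was 0.16, against -0.01 over all tested IDs. ENSG00000118181.11, of the small subunit, was at 5.96, 11.6 and 29.7 CPM in cells and at 13.4, 21.0 and 33.5 CPM in washed, with overlap, and its log2 fold change was 0.76 (SE 0.23, edgeR adjusted p = 0.0377). ENSG00000137818.12, with the values given above and overlap between the modes, had a log2 fold change of 0.44 (SE 0.13, edgeR adjusted p = 0.0336). Neither call held when single libraries were left out: ENSG00000118181.11 lost it in 14 of 24 such fits, up to an adjusted p of 0.106 without washed, hypoxia, no SPP1 replicate 2, and ENSG00000137818.12 in 9 of 24, up to 0.0707 without cells, hypoxia, SPP1 replicate 3.

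Against naive splenocytes, the 2 co-culture modes had more of the ribosomal protein IDs higher than the medium mode had. In cells, 28 of the 45 were higher and 0 lower (edgeR, adjusted p under 0.05), against 13.9% higher and 13.4% lower over all tested IDs, with a median log2 fold change of 0.90 against 0.04. In washed, 34 were higher and 0 lower, against 17.5% and 17.1%, with a median of 1.14 against 0.04. In medium, 13 were higher and 1 lower, against 17.1% and 15.3%, with a median of 0.29 against 0.11. By subunit, the IDs called higher were 17 of 24 small and 11 of 21 large in cells, 20 of 24 and 14 of 21 in washed, and 8 of 24 and 5 of 21 in medium. These 3 comparisons share the same 2 naive libraries, and most of their calls depend on naive replicate 2. Without that library, the shallowest of all, the calls fell to 7 in cells, 12 in washed and 1 in medium, with the remaining naive library assumed to vary like the other groups. The share of all tested IDs called in that fit is not given here, so the fall cannot be read as particular to these IDs. Scaling by library totals alone gave 12 higher and 3 lower in medium.

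The naive libraries were low for several IDs of few counts. ENSG00000174444.15, of the large subunit, had 2 and 1 counts in the naive libraries, or 1.94 and 1.29 CPM. It was at 5.17, 13.3 and 26.7 CPM in medium, 7.15, 12.4 and 46.9 CPM in cells and 4.14, 22.3 and 35.1 CPM in washed, and all of these lay above both naive libraries. The fitted log2 fold change was the largest among the members in each of the 3 comparisons, 2.94 (edgeR adjusted p = 0.0129), 3.12 (edgeR adjusted p = 0.00894) and 3.48 (edgeR adjusted p = 0.00278), with an SE of 0.90 to 0.92. The ratio of pooled counts over the naive ones was 8.27 in medium, with an exact 95% counting interval of 2.79 to 40.5, 9.61 in cells, with 3.25 to 47, and 11.7 in washed, with 3.96 to 57.3. Without naive replicate 2 none of the 3 calls held, at adjusted p of 0.149, 0.135 and 0.0679.

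Other members stood well above the naive level. ENSG00000140988.16, of the small subunit, was at 13.5 and 11.6 CPM in the naive libraries and at 51.4, 85.5 and 132 CPM in washed, with no overlap, for a log2 fold change of 2.82 (SE 0.49, edgeR adjusted p = 2.76e-05). ENSG00000177954.14 was at 9.68 and 12.9 CPM in the naive libraries, below every cells library, with a log2 fold change of 2.37 in cells (SE 0.53, edgeR adjusted p = 0.000795). ENSG00000145425.10, the ID that was lower in both co-culture modes than in medium, was at 8.71 and 3.87 CPM in the naive libraries, below every medium library, and its log2 fold change in medium was 2.46 (SE 0.59, edgeR adjusted p = 0.00174). That call was lost without naive replicate 2, at an adjusted p of 0.0853.

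ENSG00000137818.12 was the member called lower in medium than in naive. Its naive values were 2183 and 1977 CPM, above every medium library, and the log2 fold change was -1.83 (SE 0.21, edgeR adjusted p = 6.38e-08). Without naive replicate 1 the adjusted p was 5.12e-05, the highest over all alternatives. Against naive, its log2 fold change was -0.50 (SE 0.23, edgeR adjusted p = 0.102) in cells and -0.06 (SE 0.24, edgeR adjusted p = 0.864) in washed, so neither of those passed the test.

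SPP1 in the RAW264.7 pre-culture made no call among the ribosomal protein IDs in any mode. In medium 0 of 45 were called, against 0% higher and 0.25% lower over all tested IDs, in cells 0, against 0% in either direction, and in washed 0, against 0.0193% higher and 0% lower. At an unadjusted p under 0.05 there were 3 of the 45 members in medium, 1 in cells and 0 in washed. Over all 5193 tested IDs there were 478, 87 and 527 in the same order. The summed share was 7.51% ± 0.151 with SPP1 (SD, n = 6) and 7.89% ± 1.31 without it (n = 5) in medium, 11.5% ± 0.917 and 11.7% ± 0.589 (n = 6 each) in cells, and 11.2% ± 2.12 and 11.7% ± 0.808 (n = 6 each) in washed. The shares with and without SPP1 overlapped in all modes. The median log2 fold changes were -0.05, -0.09 and 0.06 for medium, cells and washed. The median SE of a member was 0.20, 0.19 and 0.19 on the log2 scale. A change of a single ID well above its SE could stay uncalled at this depth and number of libraries.

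The nearest to a call for SPP1 were members already described. In medium, ENSG00000137818.12 had a log2 fold change of -0.64 (SE 0.19, edgeR adjusted p = 0.235) with SPP1 against without, and ENSG00000145425.10 one of 1.02 (SE 0.35, edgeR adjusted p = 0.348). The 2 medium libraries that stood apart are both of the arm without SPP1, and they held the highest values of the first ID and the lowest of the second. Without medium, normoxia, no SPP1 replicate 2, 1 member passed the test.

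Hypoxia in the RAW264.7 pre-culture made a call for 1 of the 45 IDs, in the cells mode. There 2.72% of all tested IDs were called higher and 0.905% lower. In medium 0 members were called, against 0% higher and 0.077% lower, and in washed 0, against 0.0193% in each direction. At an unadjusted p under 0.05 there were 1 of the 45 members in medium, 5 in cells and 0 in washed. Over all 5193 tested IDs there were 382, 927 and 426 in the same order. The summed share was 7.53% ± 0.421 with hypoxia (SD, n = 6) and 7.87% ± 1.24 with normoxia (n = 5) in medium, 11.8% ± 1.01 and 11.5% ± 0.367 (n = 6 each) in cells, and 12.1% ± 1.26 and 10.8% ± 1.68 (n = 6 each) in washed. All of these overlapped. The median log2 fold changes were -0.03, 0.18 and 0.18 for medium, cells and washed, against 0.02, 0.05 and 0.02 over all tested IDs.

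The ID called for hypoxia was again ENSG00000145425.10. In the cells libraries of hypoxia it was at 19.1, 44.1 and 54.7 CPM without SPP1 and at 25.3, 25.5 and 42.3 CPM with SPP1. In those of normoxia it was at 8.50, 7.93 and 9.31 CPM without SPP1 and at 9.18, 16.6 and 11.7 CPM with SPP1. Every hypoxia library lay above every normoxia library, and the log2 fold change was 1.74 (SE 0.36, edgeR adjusted p = 0.00252). The call held without each library in turn, with an adjusted p of 0.0145 at most, without cells, hypoxia, no SPP1 replicate 3. In the same contrast the log2 fold change was 0.38 (SE 0.35, edgeR adjusted p = 0.896) in medium and 0.17 (SE 0.39, edgeR adjusted p = 0.938) in washed. The difference between the effects of hypoxia in washed and in cells was -1.57 on the log2 scale (SE 0.53, edgeR adjusted p = 0.376) and that between cells and medium 1.36 (SE 0.50, edgeR adjusted p = 0.343), so a difference between modes was not shown.

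No member was called for a difference of the SPP1 or the oxygen effect between modes. The background over all tested IDs was 0% for the SPP1 effect in washed minus cells and 0% in cells minus medium, and 0.173% and 0.481% for the oxygen effect in the same order. At an unadjusted p under 0.05 there were 1, 1, 1 and 3 members. The counts at that threshold over all 5193 tested IDs were 391, 255, 367 and 436 in the same order.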

How the data were processed

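RNA of 37 splenocyte samples was made into QuantSeq 3′ libraries, which read the 3′ ends of polyadenylated transcripts. Per the series text, the authors trimmed reads with bbduk, used STAR 2.7.10b with GRCh38 for alignment and took counts per gene from featureCounts (Rsubread 2.0.3). The authors deposited raw counts, all whole numbers, of 631574 to 1337314 per library. Use of the molecular identifiers, handling of multiply aligned reads and annotation release are not given in the sources used here, so a count may include PCR copies.

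Counts were analysed with R 4.3.3 and edgeR 4.0.16 (filterByExpr, minimum count 10; TMM; quasi-likelihood F test, glmQLFTest) in 1 model of 13 group means over all 37 libraries. The 5193 tested IDs held 97.8% to 99.4% of a library's counts. P-values were Benjamini-Hochberg adjusted over all 5193 and called under 0.05. Modes were compared as equally weighted means of their groups. CPM is scaled by TMM. Groups came from the treatment label and replicate numbers from the titles. The series text says that experiments were independently replicated, but the labels do not tie libraries to animals, so p-values measure the spread between these libraries. The fit was tested on simulated data. DESeq2 1.42.0, other scalings, no filter, a replicate block and left-out libraries were tried as alternatives.

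Named IDs were the 2 largest called changes in each direction per comparison, plus the tested IDs of highest and lowest mean CPM, described without a test. ENSG00000080824.19 was chosen after its values were seen. Members and lists were chosen with earlier results of these data known. Other gene lists and cell type markers had been fixed by symbol and were not applied, since the table and the mouse references do not pair human IDs with symbols. For the same reason no position or sequence is given.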

Additional observations from a re-analysis of the deposited data

How the results depend on the processing

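The counts of ribosomal protein IDs called against medium, against naive, and for SPP1 and oxygen kept within 1.5 times their value under 9 alternatives each (27 to 36 for cells and 34 to 44 for washed against medium). Scaling by library totals alone moved the median log2 fold change of all IDs to -0.18 for cells and -0.31 for washed against medium, and the ribosomal protein medians were then 0.43 and 0.52. The 2 calls of washed against cells became 0 with library totals, with every ID that had a count, and without the 5 co-culture libraries that stood apart, and 1 with only the modes compared. The 40 calls across 13 groups became 26 with library totals alone. The cause was not tested. Without the leading ID the mean shares were 5.20% in medium, 7.83% in cells, 7.70% in washed and 4.92% in naive.

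Leaving out each library in turn gave 1 to 17 calls for medium against naive, 7 to 30 for cells against naive and 12 to 37 for washed against naive, the lowest each without naive replicate 2. It gave 26 to 38 for cells against medium, 39 to 43 for washed against medium, 0 to 5 for washed against cells, 0 to 1 for SPP1 in medium, and 35 to 43 across the groups. The share of all tested IDs called in these alternative and leave-out fits is not given here, so the counts describe the members only. No named change reversed its sign in any alternative run. Counts of calls and mean shares were compared by size only, so a reversal was not defined for them. The order of the washed and cells mean shares turned without the libraries that stood apart.

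Same-numbered libraries of different groups had a median r of 0.0068 over 210 pairs, against -0.0012 over 421 pairs of different number. An r over 0.1 was found for 36 and 67 of these pairs. Of 37 libraries, 17 were closest to their own number. The numbers were not taken as a pairing, though a weak one is not excluded. With a replicate block, 35 of 45 IDs were called for cells and 42 for washed against medium, and 12, 27 and 34 for medium, cells and washed against naive. These counts too are given without the share over all tested IDs. Depth limits the low IDs most, and the 2 naive libraries limit every comparison with naive.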
